A study of Homo sapiens with 12 samples.

Results

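The expression of 5 interferon-linked genes, PARP9, PARP10, PARP12, PARP14 and DTX3L, was followed beside that of 2 DNA repair genes, PARP1 and PARP2, in cells of head and neck squamous carcinoma (HNSCC) in which MUC1-C was silenced. The 7 genes were taken by symbol from the 39368 symbols listed in each of the 2 count tables, and each symbol was found once in both tables. Both lines, CAL27 and HSC3, are established and HPV-negative, and both carried an inducible hairpin against MUC1 (tet-MUC1shRNA), so the controls and the treated cells had the same construct. The cells were treated for 7 days with vehicle (0.1% DMSO) or with 500 ng/mL doxycycline (DOX), which induces the hairpin, and polyA-selected RNA was sequenced from 3 cultures in each of the 4 groups. Comparing DOX with vehicle within a line asks how these genes respond when MUC1-C is silenced. CAL27 cells were grown in DMEM and HSC3 cells in MEM. DOX-treated cells with a control hairpin were not analysed here, so silencing of MUC1 and any other effect of DOX or of the hairpin cannot be told apart.

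The PARP family transfers ADP-ribose from NAD to proteins and nucleic acids. PARP1 and PARP2 bind broken DNA in the nucleus and build chains of ADP-ribose that recruit repair factors. PARP9, PARP10, PARP12 and PARP14 belong to the branch of the family that adds single ADP-ribose units or, for PARP9, binds ADP-ribose through macrodomains, and their genes are induced by interferon in many cell types. DTX3L is a ubiquitin ligase of the Deltex family that forms a complex with PARP9, and the genes for both lie head to head. In squamous epithelium, as elsewhere, interferons signal through receptor-bound JAK kinases to factors, among them STAT2 and IRF9, that bind the interferon-stimulated response element (ISRE), while interferon gamma also acts through the gamma-activated site (GAS).

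PARP9 (chr3:122527924-122564577, minus strand), DTX3L (chr3:122564338-122575203, plus strand) and PARP14 (chr3:122680839-122730840, plus strand) lie within 202917 bases of GRCh38. The 5′ ends of PARP9 and DTX3L overlap on opposite strands by 240 bases of gene body and 139 bases of exon. PARP12 is on chromosome 7 (chr7:140023749-140062951, minus strand), PARP1 on chromosome 1 (chr1:226360210-226408154, minus strand) and PARP2 on chromosome 14 (chr14:20343615-20357904, plus strand). Promoter windows, running from 250 bases before to 50 bases after each transcription start, were taken from RefSeq (GRCh38.p14) for 6 of the 7 genes. PARP10 had no entry. The ISRE was searched as GAAANNGAAA and the GAS as TTCNNNGAA, on both strands, with N for any base. The windows of DTX3L, PARP14 and PARP12 are shown from 90 bases before to 20 bases after the start because they carry the ISRE letters and belong to genes downregulated by DOX in CAL27 cells. The PARP9 match is the one printed for DTX3L. Each is written 5′ to 3′ on the strand of its gene, with the matched letters in capitals.

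DTX3L: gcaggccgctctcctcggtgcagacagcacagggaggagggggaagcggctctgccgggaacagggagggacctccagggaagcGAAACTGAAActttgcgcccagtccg

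PARP14: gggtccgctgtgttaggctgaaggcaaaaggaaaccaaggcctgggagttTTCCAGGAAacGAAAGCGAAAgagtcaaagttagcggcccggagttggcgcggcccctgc

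PARP12: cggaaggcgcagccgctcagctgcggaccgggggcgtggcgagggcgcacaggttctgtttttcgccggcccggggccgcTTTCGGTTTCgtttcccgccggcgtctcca

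In DTX3L (chr3:122564248-122564357) the ISRE letters began 6 bases before the start and ran across it. The same 10 bases lie in 1 of the 2 PARP9 windows, 41 bases before that PARP9 start, since 137 bases of this window are shared with that of DTX3L. The other PARP9 window held neither motif. In PARP14 (chr3:122680749-122680858) the GAS letters began 40 bases and the ISRE letters 29 bases before the start, with no base in common. In PARP12 (chr7:140062932-140063041) the ISRE letters stood on the opposite strand, 10 bases before the start. The PARP1 window held neither motif, and that of PARP2 held only the GAS letters, 154 bases before the start. Of all 35116 RefSeq windows of this length, 3.57% held the ISRE letters and 7.66% the GAS letters. A match describes the letters and not a bound site.

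Total counts per library ranged from 92866845 to 126328662 in CAL27 cells and from 89730914 to 169065103 in HSC3 cells. Odd numbers made up 32.2% to 35.7% of the counts between 1 and 19 in CAL27 libraries and 22.1% to 25.7% in HSC3 libraries, so counts did not behave as independent single reads. Replicates are 3 cultures of 1 line, and p-values measure the spread between those cultures. The HSC3 DOX replicate 1 stood apart from the other HSC3 DOX libraries (chi-square per degree of freedom of 141 and 90.9, against 23.2 between the other two), and values without it are given beside the results on the 7 genes, their ratios and the gene lists in HSC3 cells. Among CAL27 DOX libraries, that of column 6 differed from the others by 31.4 and 29.5 on this measure, against 9.3 between those. All 7 squamous epithelial markers exceeded a mean of 1 CPM in every group. Their summed level was 6590 to 6770 CPM with vehicle and 3290 to 3480 CPM with DOX in CAL27 cells, and 5320 to 5890 CPM and 2460 to 2940 CPM in HSC3 cells, and the part of this shift in the results was not tested. In both lines KRT5, KRT14, KRT6A and TP63 were lower with DOX, EPCAM was higher (log2 fold change 0.40 in CAL27 and 0.87 in HSC3 cells), and SFN and CDH1 did not pass the test. Summed immune, fibroblast and endothelial markers stayed at or under 16.7 CPM in every library.

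MUC1, the gene targeted by the hairpin, was at 63.9, 58.9 and 59.9 CPM in CAL27 vehicle libraries and at 3.19, 3.06 and 3.58 CPM with DOX. CPM are counts scaled to library size, after TMM normalization within a line. In HSC3 cells MUC1 was at 1.51, 1.78 and 1.5 CPM with vehicle and at 0.279, 0.244 and 0.12 CPM with DOX, the last from 16 counts. MUC1 was downregulated in both lines (CAL27 log2 fold change -4.21, SE 0.0666, adjusted p = 1.6e-19; HSC3 -2.88, SE 0.376, adjusted p = 2e-04, edgeR quasi-likelihood test). Here and below, adjusted p are Benjamini-Hochberg values over all genes tested in the comparison, from the edgeR quasi-likelihood test.

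**Figure D1:**
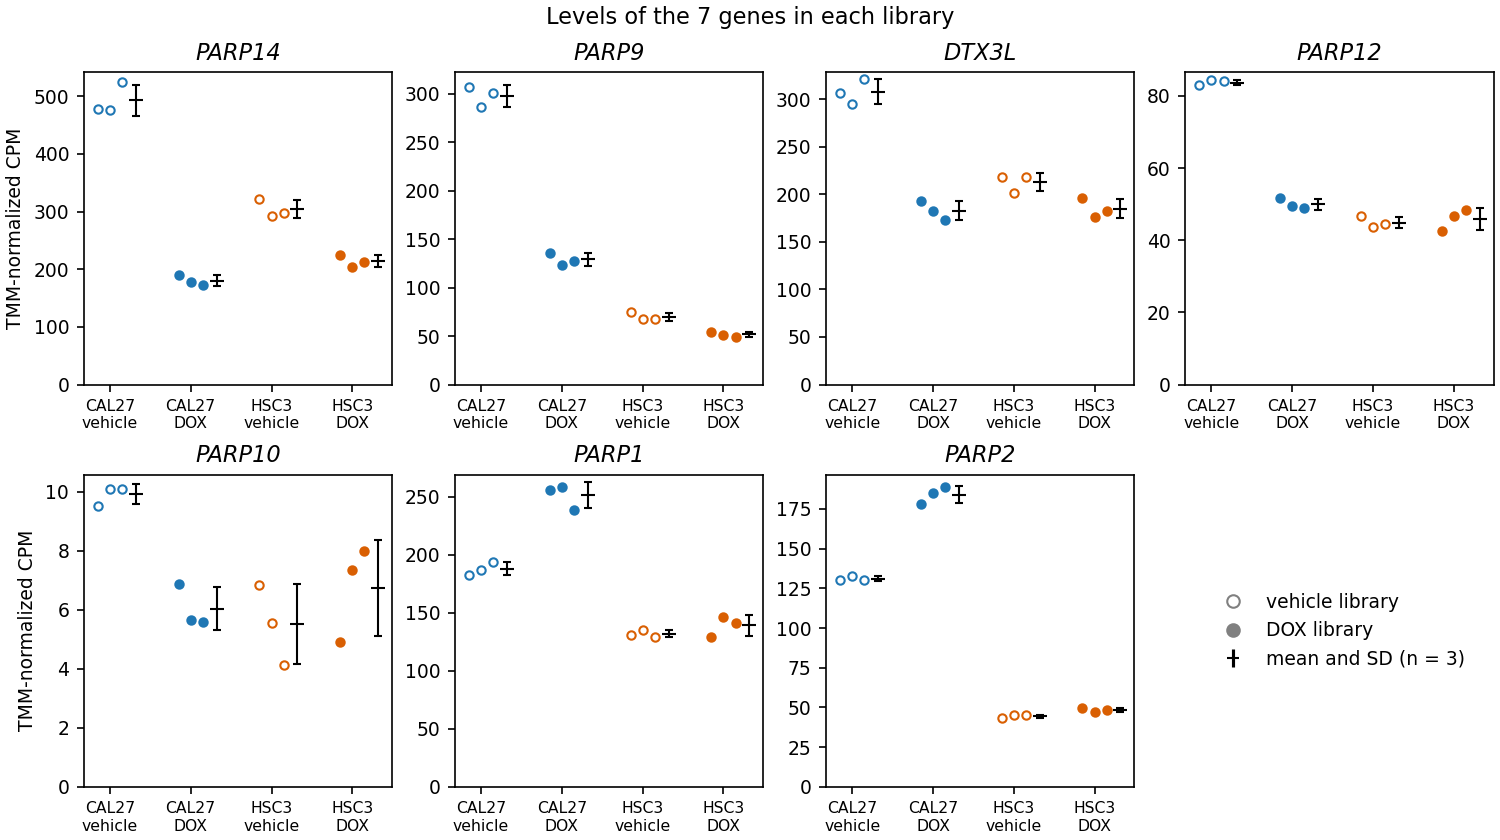
TMM-normalized CPM (y axis, from 0, 1 scale per gene) in each vehicle (open points) and DOX (filled points) library, with the mean and SD of the 3 libraries in black. In CAL27 cells the 5 interferon-linked genes sat lower with DOX in every library and PARP1 and PARP2 higher, and in HSC3 cells the vehicle and DOX points of PARP10, PARP12 and PARP1 overlapped.

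In CAL27/tet-MUC1shRNA cells, DOX treatment downregulated all 5 interferon-linked genes, and PARP1 and PARP2 were both upregulated. PARP14 and PARP9 fell by more than 2-fold, and DTX3L, PARP12 and PARP10 fell by 1.68-, 1.67- and 1.64-fold. Among all 19239 genes tested in CAL27 cells, 21.8% were lower, 5.11% were lower by over 2-fold and 22.6% were higher at an adjusted p under 0.05. The median log2 fold change was -0.75 for the 5 interferon-linked genes, 0.46 for PARP1 and PARP2, and -0.0052 for all genes tested. In bulk RNA, fewer cells of a type and less RNA per cell cannot be told apart.

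PARP14, a mono-ADP-ribosyltransferase with macrodomains, was at 478, 477 and 524 CPM with vehicle and at 190, 178 and 172 CPM with DOX in CAL27 cells. The mean was 493 ± 26.7 CPM with vehicle and 180 ± 9.13 CPM with DOX (SD, n = 3). No DOX library reached the lowest vehicle library, and the gap was many times the spread within either group. The log2 fold change was -1.45 (SE 0.0463, adjusted p = 7e-15 by edgeR), the largest fall of the 7 genes.

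PARP9, the macrodomain partner of DTX3L, was at 307, 286 and 301 CPM with vehicle and at 136, 123 and 127 CPM with DOX. Its mean fell from 298 ± 11.2 to 129 ± 6.59 CPM (SD, n = 3), a log2 fold change of -1.21 (SE 0.0435, adjusted p = 2.3e-14 by edgeR). Every DOX library lay below every vehicle library. DTX3L, the ubiquitin ligase, was at 307, 295 and 321 CPM with vehicle and at 193, 183 and 173 CPM with DOX. Its log2 fold change was -0.75 (SE 0.0439, adjusted p = 3.2e-11 by edgeR). The vehicle and DOX libraries of DTX3L did not overlap.

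PARP12, a zinc finger protein that adds single ADP-ribose units, was at 82.9, 84.3 and 84.0 CPM with vehicle and at 51.8, 49.4 and 48.9 CPM with DOX. This was a log2 fold change of -0.74 (SE 0.0412, adjusted p = 1.3e-11 by edgeR). The vehicle libraries were within a few percent of each other, and all DOX libraries were lower. PARP10, another mono-ADP-ribosyltransferase, encoded on chromosome 8, had the fewest counts of the 7 genes, at 9.51, 10.1 and 10.1 CPM with vehicle and 6.87, 5.64 and 5.59 CPM with DOX. Its log2 fold change was -0.72 (SE 0.0903, adjusted p = 1.6e-06 by edgeR), and the groups did not overlap. Exons of GRINA and SPATC1 on the opposite strand cover 8.64% of PARP10 exons, and whether counting used the strand that the library kit keeps is not given in the sources used here.

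PARP1, the main sensor of DNA strand breaks, was at 182, 187 and 194 CPM with vehicle and at 256, 258 and 238 CPM with DOX in CAL27 cells (log2 fold change 0.42, SE 0.0412, adjusted p = 6.1e-08 by edgeR). PARP2, its paralogue in repair, was at 130, 133 and 130 CPM with vehicle and at 178, 185 and 189 CPM with DOX (log2 fold change 0.49, SE 0.0377, adjusted p = 1.6e-09 by edgeR). For both genes every DOX library exceeded every vehicle library. All 5 interferon-linked genes had every DOX library below every vehicle library. Over all genes tested in CAL27 cells, such separation was found for 26.3% downward and for 26.0% upward.

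In HSC3/tet-MUC1shRNA cells, DOX treatment downregulated PARP14, PARP9 and DTX3L, the 3 members on chromosome 3, and each fell by less than in CAL27 cells. PARP10, PARP12, PARP1 and PARP2 did not pass the test. Of the 18021 genes tested in HSC3 cells, 15.4% were lower, 4.4% were lower by over 2-fold and 13.0% were higher. None of the 5 interferon-linked genes was lower by over 2-fold. The median log2 fold change was -0.20 for the 5 interferon-linked genes and -0.0097 for all genes tested.

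PARP14 was at 321, 292 and 298 CPM with vehicle and at 225, 204 and 213 CPM with DOX in HSC3 cells. Its mean fell from 304 ± 15.7 to 214 ± 10.5 CPM (SD, n = 3), a log2 fold change of -0.51 (SE 0.064, adjusted p = 0.00017 by edgeR). All DOX libraries were below all vehicle libraries. PARP9 was at 74.6, 67.1 and 67.2 CPM with vehicle and at 54.2, 51.3 and 49.5 CPM with DOX, again without overlap. Its log2 fold change was -0.43 (SE 0.0738, adjusted p = 0.0013 by edgeR). Without HSC3 DOX replicate 1 the log2 fold change was -0.54 for PARP14 and -0.47 for PARP9, and both were still called.

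DTX3L was at 218, 201 and 218 CPM with vehicle and at 196, 176 and 183 CPM with DOX in HSC3 cells. The groups were separated only narrowly, between a vehicle library at 201 and a DOX library at 196 CPM. The log2 fold change was -0.20 (SE 0.0646, adjusted p = 0.038 by edgeR). The call was lost with the size factors of DESeq2 in place of TMM (adjusted p = 0.071) and when any 1 HSC3 library other than DOX replicate 1 was left out (adjusted p of 0.051 without vehicle replicate 2 and up to 0.15 without vehicle replicate 1). Without DOX replicate 1 it was -0.25 with an adjusted p of 0.00076.

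PARP12 was at 46.6, 43.6 and 44.4 CPM with vehicle and at 42.6, 46.6 and 48.4 CPM with DOX in HSC3 cells. The groups overlapped, and the 95% interval of the log2 fold change ran from -0.14 to 0.20 around 0.03 (adjusted p = 0.83 by edgeR). That interval does not reach the fold change of PARP12 in CAL27 cells. PARP10 was at 6.85, 5.56 and 4.13 CPM with vehicle and at 4.89, 7.33 and 7.97 CPM with DOX, from 505 to 1082 counts. Its libraries were more scattered than those of the other members, with a log2 fold change of 0.29 and an interval from -0.20 to 0.77 (adjusted p = 0.39 by edgeR). Without HSC3 DOX replicate 1, the lowest of the DOX libraries, it was 0.47 with an adjusted p of 0.035.

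PARP1 was at 131, 135 and 129 CPM with vehicle and at 129, 146 and 141 CPM with DOX in HSC3 cells, with overlap (log2 fold change 0.07, 95% interval -0.07 to 0.22, adjusted p = 0.46 by edgeR). PARP2 was at 43.1, 45.0 and 45.0 CPM with vehicle and at 49.7, 47.3 and 48.5 CPM with DOX. Every PARP2 DOX library was above every vehicle library, but the log2 fold change of 0.13 did not pass the test (95% interval -0.02 to 0.28, adjusted p = 0.21 by edgeR). Without DOX replicate 1 the values were 0.12 for PARP1, 0.11 for PARP2 and 0.08 for PARP12, none of them called. Of all genes tested in HSC3 cells, 22.8% had every DOX library below and 19.8% every DOX library above the vehicle libraries, and 3 of the 5 interferon-linked genes were among the first.

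**Figure D2:**
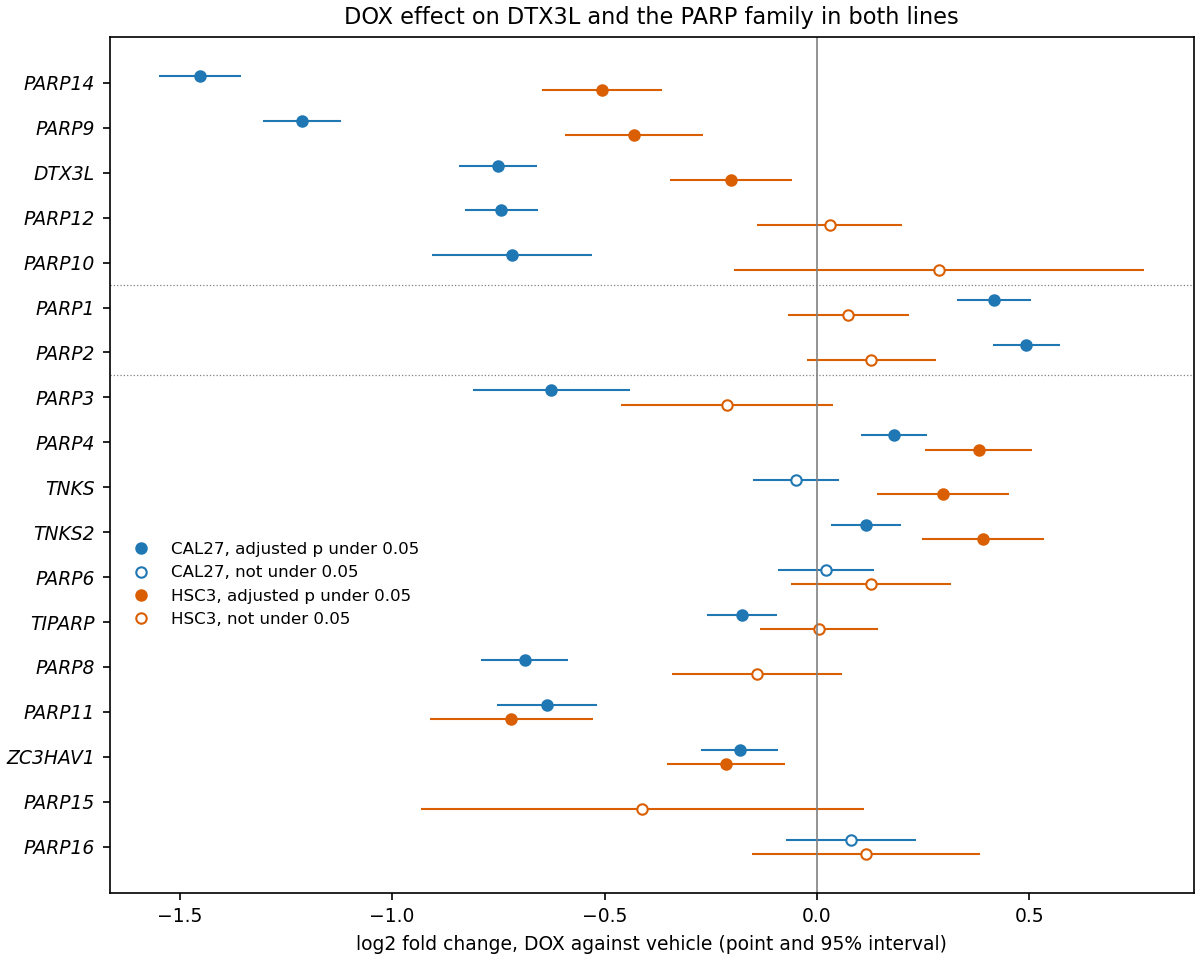
Log2 fold change with DOX against vehicle (x axis, point and 95% interval) for the 5 interferon-linked genes (above the upper dotted line), PARP1 and PARP2, and the other family members (below the lower dotted line) in CAL27 and HSC3 cells, filled where the adjusted p was under 0.05. PARP14 lies farthest to the left in CAL27 cells at -1.45, and PARP11 in HSC3 cells at -0.72.

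The DOX effect differed between the lines for all 7 genes in a test of the interaction over the 12 libraries. The effect in HSC3 cells minus that in CAL27 cells was 0.95 for PARP14 (SE 0.086, adjusted p = 2.3e-06), 0.78 for PARP9 (SE 0.0875, adjusted p = 1.5e-05) and 0.55 for DTX3L (SE 0.0848, adjusted p = 0.00026, edgeR). It was 0.77 for PARP12 (SE 0.0803, adjusted p = 7.5e-06) and 1.00 for PARP10 (SE 0.263, adjusted p = 0.013, edgeR). The sign was negative for PARP1 at -0.34 (SE 0.0755, adjusted p = 0.0043) and for PARP2 at -0.36 (SE 0.0667, adjusted p = 0.0011, edgeR). Over all 20694 genes in this fit, 8.25% had a higher and 12.3% a lower value in HSC3 cells than in CAL27 cells. MUC1 itself differed in its effect by 1.36 (adjusted p = 0.001 by edgeR). On 1 scale over all 12 libraries, MUC1 began from 55.3 ± 2.79 CPM in CAL27 and 1.76 ± 0.186 CPM in HSC3 vehicle libraries (SD, n = 3). The part of these MUC1 differences in those of the 7 genes was not tested. Line, medium and library set cannot be told apart in this comparison. Without HSC3 DOX replicate 1 the 7 differences kept their signs and calls, from -0.37 for PARP2 to 1.21 for PARP10.

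Vehicle levels were compared on 1 scale over all 12 libraries. PARP9 was at 271 ± 12.1 CPM in CAL27 and 76.5 ± 4.56 CPM in HSC3 cells (SD, n = 3), a log2 difference of -1.82 (adjusted p = 1.2e-12 by edgeR), the widest of the 7 genes. PARP2 followed with 119 ± 0.818 and 48.7 ± 1.28 CPM (log2 difference -1.29, adjusted p = 2.5e-12). The other differences were smaller, at -0.62 for PARP12, -0.57 for PARP10, -0.42 for PARP14, -0.26 for DTX3L and -0.24 for PARP1, with adjusted p of 0.014 or less. All 7 genes were therefore lower in HSC3 cells, where 32.3% of all genes tested were lower and 30.6% higher. The median of all genes was -0.12 on this scale and -0.39 with library totals alone. Relative to that median of -0.12, DTX3L differed by -0.14 and PARP1 by -0.12. The PARP10 call was lost without HSC3 vehicle replicate 3 (-0.41, adjusted p = 0.068).

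Per kilobase of exon, DTX3L and PARP14 were the most abundant of the 7 transcripts with vehicle. DTX3L was at 48.4 ± 2.18 and PARP14 at 43.5 ± 2.34 CPM per kilobase in CAL27 cells, and their libraries overlapped. PARP9 at 30.3 ± 1.35 and PARP2 at 29.2 ± 0.201 also overlapped, and were followed by PARP12 at 13.8, PARP1 at 9.26 and PARP10 at 1.49 CPM per kilobase. In HSC3 cells the levels were 40.5 ± 1.7 for DTX3L, 32.5 ± 1.58 for PARP14, 12 for PARP2, 8.95 for PARP12, 8.56 for PARP9, 7.86 for PARP1 and 1.00 for PARP10 CPM per kilobase. Of these, the libraries of PARP12 and PARP9 overlapped. The order depends on the length taken. With the longest annotated transcript in place of all exons, PARP2 came first in CAL27 cells at 60.0 CPM per kilobase and PARP1 was at 27.4, since its exons span 18399 bases in all and 6210 in the longest transcript. PARP10 was lowest with either length.

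Ratios of counts within a library need no scaling between libraries. In CAL27 cells the ratio of PARP14 to PARP1 was 2.62, 2.54 and 2.71 in vehicle libraries and 0.743, 0.689 and 0.725 in DOX libraries, a log2 change of -1.87. PARP14 counts thus exceeded PARP1 counts in every vehicle library and were below them in every DOX library. Counts are not scaled to gene length. Per kilobase of all exons, PARP14 was at 15.9 and PARP1 at 12.4 CPM in CAL27 DOX libraries. With the longest transcript they were at 19.4 and 36.7 CPM per kilobase, so the crossing does not rank the 2 transcripts. Each ratio change includes that of PARP1 itself, whose log2 fold change was 0.42 in CAL27 and 0.07 in HSC3 cells. The log2 change of the ratio to PARP1 was -1.63 for PARP9, -1.17 for DTX3L, -1.16 for PARP12 and -1.14 for PARP10. In all 5 the groups did not overlap (exact two-sided permutation test p = 0.1, the smallest value that 3 against 3 libraries allow, so the test cannot reach 0.05). The ratio of PARP2 to PARP1 was 0.714, 0.707 and 0.672 in vehicle libraries and 0.697, 0.717 and 0.796 in DOX libraries, with overlap (log2 change 0.08, exact permutation p = 0.4).

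In HSC3 cells the ratio of PARP14 to PARP1 was 2.45, 2.16 and 2.30 in vehicle libraries and 1.74, 1.40 and 1.51 in DOX libraries (log2 change -0.58, exact permutation p = 0.1). The ratio of PARP9 to PARP1 moved by -0.50 without overlap (exact permutation p = 0.1), and that of DTX3L by -0.28 with overlap (exact permutation p = 0.2). PARP14 counts stayed above PARP1 counts in every HSC3 library, in contrast to CAL27 cells. The ratios of PARP12, PARP10 and PARP2 to PARP1 overlapped between the groups, with log2 changes of -0.04, 0.22 and 0.06 and exact permutation p of 0.4, 0.6 and 0.7. With 6 ratios in each line, no adjusted value can be below 0.1. Without HSC3 DOX replicate 1 the log2 changes of the ratio to PARP1 were -0.67 for PARP14, -0.59 for PARP9, -0.37 for DTX3L, -0.04 for PARP12, 0.38 for PARP10 and -0.01 for PARP2.

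**Figure D3:**
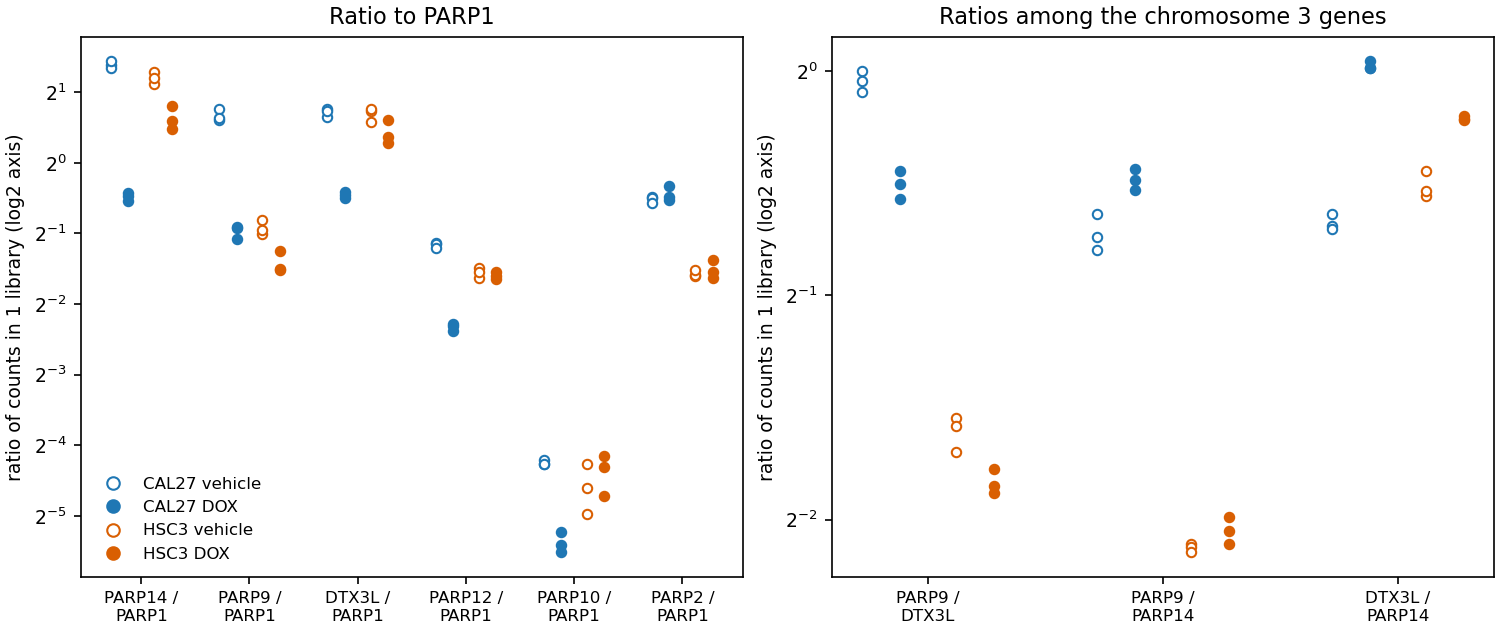
Ratio of the counts of 2 genes within 1 library (y axis, log2 scale), for vehicle (open points) and DOX (filled points) libraries of CAL27 and HSC3 cells. Counts are not scaled to gene length. In the left panel the PARP14 to PARP1 ratio passes from above 1 to below 1 in CAL27 cells, and in the right panel the DTX3L to PARP14 ratio is higher with DOX in both lines.

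The 3 genes on chromosome 3 changed by unequal amounts. The following ratios were chosen after the values had been seen and are given as descriptions. PARP9 to DTX3L was 1.00, 0.968 and 0.938 in vehicle libraries and 0.705, 0.673 and 0.733 in DOX libraries in CAL27 cells, and 0.342, 0.334 and 0.308 against 0.277, 0.292 and 0.271 in HSC3 cells. The ratio was nearest to 1 in CAL27 vehicle libraries and was lower with DOX in both lines. DTX3L to PARP14 went the other way, from 0.642, 0.619 and 0.613 to 1.01, 1.03 and 1.01 in CAL27 cells and from 0.68, 0.689 and 0.733 to 0.87, 0.863 and 0.858 in HSC3 cells. PARP14, PARP9 and DTX3L therefore stood in the same order of fall in both lines, although the log2 change of the PARP9 to PARP14 ratio in HSC3 cells was only 0.08. The exon bases shared by PARP9 and DTX3L are 1.56% of PARP9 exons and 2.41% of DTX3L exons.

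The 5 nearest protein-coding genes tested on each side of the chromosome 3 genes were compared with them. Among all genes tested, 21.8% were lower and 22.6% higher for CAL27, and 15.4% and 13.0% for HSC3. Of these 10 flanking genes, 3 were lower and 4 higher with DOX in CAL27 cells, with a median log2 fold change of 0.06, and 2 were lower and 3 higher in HSC3 cells, with a median of 0.10. The lowest was CSTA, which encodes the protease inhibitor cystatin A of squamous epithelium, at -0.75 in CAL27 (adjusted p = 4.7e-10) and -0.56 in HSC3 cells (adjusted p = 0.00041, edgeR). KPNA1, which encodes an importin and was the nearest of the 10 on the PARP9 side, was higher in both lines at 0.53 (adjusted p = 2.3e-09) and 0.59 (adjusted p = 4.5e-05, edgeR). PDIA5, for a protein disulfide isomerase, was the highest in HSC3 cells at 0.78 (adjusted p = 0.00079, edgeR). PARP15 lies between DTX3L and PARP14 and had 2 to 22 counts with vehicle and 0 to 3 counts with DOX in CAL27 cells, too few to be tested.

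**Figure D4:**
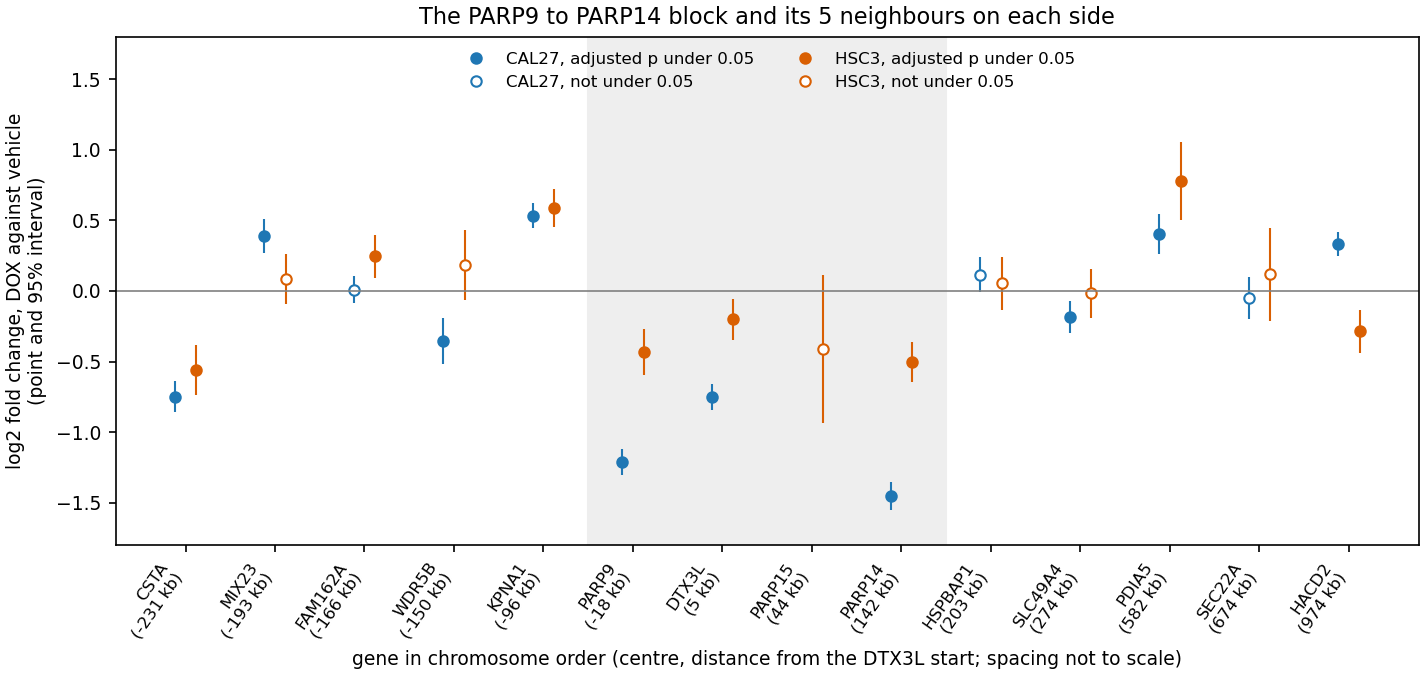
Log2 fold change with DOX against vehicle (y axis, point and 95% interval) for the genes on chromosome 3 from PARP9 to PARP14 (shaded) and the 5 tested protein-coding genes on each side, in chromosome order with the distance of each gene's centre from the DTX3L start in kilobases. PARP9, DTX3L and PARP14 are below 0 in both lines, while KPNA1 and PDIA5 are above 0 in both lines.

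Beside the counts in this and the following lists stand the shares of all genes tested. For CAL27 these were 21.8% lower and 22.6% higher, and for HSC3 15.4% and 13.0%. No list was tested against these shares. The other 11 members of the PARP family were split. In CAL27 cells 10 of them could be tested, of which 5 were lower and 2 higher (median log2 fold change -0.11). The 5 were PARP8 at -0.69, PARP11 at -0.64, PARP3 at -0.63, ZC3HAV1 at -0.18 and TIPARP at -0.18, and the 2 were PARP4 at 0.18 and the tankyrase gene TNKS2 at 0.11. ZC3HAV1 encodes the zinc finger antiviral protein, a catalytically inactive member, and TIPARP is a target of the aryl hydrocarbon receptor. PARP6 at 0.02, PARP16 at 0.08 and TNKS at -0.05 did not pass the test. In HSC3 cells all 11 were tested, of which 2 were lower and 3 higher (median 0.005). PARP11 at -0.72 and ZC3HAV1 at -0.21 were the lower ones, and TNKS2 at 0.39, PARP4 at 0.38 and TNKS at 0.30 the higher ones. PARP3 at -0.21, PARP8 at -0.14, TIPARP at 0.005, PARP6 at 0.13, PARP15 at -0.41 and PARP16 at 0.12 did not pass the test in HSC3 cells. The HSC3 call on ZC3HAV1 was lost when any library other than DOX replicate 1 was left out, which left 1 lower gene, and without DOX replicate 1 there were 3 lower genes, PARP8 included, and 3 higher. The CAL27 call on TNKS2 was lost without any 1 of the 3 vehicle libraries or 1 of the DOX libraries and in 1 fit of all 12 libraries. PARP11, a mono-ADP-ribosyltransferase, was thus lower in both lines, while PARP8 differed between them by 0.55 (adjusted p = 0.0023 for the interaction by edgeR).

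Of the other 4 Deltex ligases, the family of DTX3L, 3 of 4 were lower in CAL27 cells (DTX1 at -1.05, DTX3 at -0.29 and DTX4 at -0.14) and 0 of 3 tested passed the edgeR test in HSC3 cells (0 at an unadjusted p under 0.05 and 0 with DESeq2). The CAL27 count of Deltex ligases fell to 0 without the DOX library of column 5 and in 1 fit of all 12 libraries. Among 8 genes for enzymes that remove ADP-ribose, 3 were lower in CAL27 cells, namely MACROD2 at -1.24, MACROD1 at -0.49 and OARD1 at -0.22, and 0 of 7 passed the edgeR test in HSC3 cells (1 higher at an unadjusted p under 0.05 and 0 with DESeq2). The CAL27 values of DTX1 (95% interval -1.81 to -0.29) and MACROD2 (-1.96 to -0.52) were imprecise, and neither gene could be tested in HSC3 cells. The 10 partners of PARP1 and PARP2 in strand break repair held 1 lower and 5 higher genes in CAL27 cells, with a median of 0.16. The largest changes were APLF at -0.41, the repair polymerase POLB at 0.33 and the end-processing enzyme APTX at 0.26. In HSC3 cells the same list held 1 lower gene, the replication fork factor TIMELESS at -0.62, and 1 higher gene, APTX at 0.24. Of 7 tested genes for NAD synthesis, 3 were lower and 2 higher in CAL27 cells (NMNAT2 at -0.73, NMNAT3 at -0.72 and the nuclear enzyme NMNAT1 at 0.62 the largest), and 0 were lower and 2 higher by edgeR in HSC3 cells (NMNAT1 at 1.06 and NAMPT at 0.33). In the lower direction 1 of these genes had an unadjusted p under 0.05 in HSC3 cells, and DESeq2 called 1.

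Several of these list counts rested on single libraries. In CAL27 cells 5 genes for NAD synthesis were lower without vehicle replicate 3, and 1 was higher without vehicle replicate 2 or 3. In 1 fit of all 12 libraries 0 enzymes that remove ADP-ribose were lower and 3 repair partners were higher in CAL27 cells. In HSC3 cells the APTX call was lost when any library other than DOX replicate 1 was left out, and with library totals, and 1 gene for NAD synthesis was higher without vehicle replicate 1 or 2 and 1 lower without vehicle replicate 1. Without HSC3 DOX replicate 1 there were 0 lower and 0 higher Deltex ligases, 0 lower and 1 higher gene for ADP-ribose removal, 1 lower and 1 higher repair partner, and 1 lower and 2 higher genes for NAD synthesis.

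Among 11 genes from the interferon receptors to the factors that bind the ISRE, 7 were lower and 0 higher in CAL27 cells, and 5 were lower and 0 higher in HSC3 cells by edgeR. The share of lower genes among all tested was 21.8% for CAL27 and 15.4% for HSC3, and the list was not tested against it. No gene of this list was higher at an unadjusted p under 0.05 or with DESeq2 in either line. The median log2 fold changes were -0.30 and -0.31. The HSC3 count was 3 lower without vehicle replicate 1 or DOX replicate 3, and 7 lower and 1 higher, IRF1, without DOX replicate 1. IFNGR1, a chain of the interferon gamma receptor, was at -1.20 in CAL27 and -1.44 in HSC3 cells. STAT2 was at -1.14 in CAL27 and -0.29 in HSC3 cells, a difference between the lines of 0.86 (adjusted p = 6.1e-06 by edgeR). JAK2 was at -0.51 in HSC3 cells and at 0.02 in CAL27 cells, where it did not pass the test (adjusted p = 0.82 by edgeR). IRF9 was at -3.22 in CAL27 cells (adjusted p = 0.0011 by edgeR), but from only 22, 23 and 30 counts with vehicle and 1, 6 and 0 counts with DOX. The IRF9 value was -5.28 without the DOX library of 6 counts, the call was kept with each library left out, and with so few counts in every library its size is uncertain, since how its reads were assigned was not tested. In HSC3 cells IRF9 had 12 or 13 counts with vehicle and 4 to 21 with DOX, and did not pass the test.

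Here a gene was counted as holding the letters if any of its windows did, so these are shares of genes and not of windows. For the ISRE letters the share in CAL27 cells was 10.9% of 658 genes lower by over 2-fold. It was 4.04% of the 12820 tested genes with a window. In HSC3 cells it was 6.81% of 573 and 4.11% of 12140. For genes higher by over 2-fold it was 4.49% of 156 in CAL27 and 3.48% of 201 in HSC3 cells. For the GAS letters the shares in CAL27 and HSC3 cells were 10.8% and 9.08% of lower genes and 9.62% and 10.9% of higher genes. Among all tested genes with a window they were 8.51% and 8.67%. These shares are descriptions without a test. DTX3L, PARP14, PARP9 and PARP12, which hold the ISRE letters, were lower in CAL27 cells, and all but PARP12 were lower in HSC3 cells. With neither motif in their windows, PARP3, PARP8, PARP11 and TIPARP were lower in CAL27 cells, and PARP1, PARP6, PARP16 and TNKS2 were not. ZC3HAV1, with the GAS letters, was lower in both lines, and PARP2, also with them, was higher in CAL27 cells. The part of either motif in these changes was not tested.

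The genes with a pattern most like each interferon-linked gene were sought by the root mean square (RMS) difference of log2 CPM, centred within each line, over the 12 libraries and 8572 genes. Nearest to PARP9 were PLSCR1 (RMS difference 0.065), IFITM3 (0.073) and GBP1 (0.081). GBP1 (0.093) was also among those nearest to PARP14, behind SAMHD1 (0.085) and TRANK1 (0.09). DTX3L was nearest to EIF2AK2 (0.057), the PARP family gene PARP8 (0.058) and SOD2 (0.06). PARP12 was nearest to TRIM21 (0.072), KYNU (0.076) and COL4A5 (0.077), and PARP10 to IRF1 (0.12), MVP (0.14) and HDAC5 (0.149). As in PARP12 and PARP10, the log2 fold changes of TRIM21 (-0.84 in CAL27 and 0.08 in HSC3) and IRF1 (-0.72 and 0.24) were below 0 in CAL27 cells and near or above it in HSC3 cells. The genes named here as nearest were chosen for likeness over the same libraries, so similar fold changes follow from that choice. Among the 7 genes themselves the closest pairs were PARP1 with PARP2 (0.079), PARP9 with PARP14 (0.1) and PARP12 with DTX3L (0.111), so the head-to-head pair PARP9 and DTX3L (0.189) was not the closest.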

How the data were processed

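RNA-seq of 12 cultures, 6 of each tet-MUC1shRNA line, was analysed from 1 table of raw counts per line, which the authors deposited with genes listed by symbol. The submitters' processing notes name FastQC 0.11.9, STAR 2.7.9a, Subread 2.0.1 and featureCounts. The study's methods name a stranded mRNA library kit (TruSeq) and GRCh38.74 as the genome. The gene annotation counted, the strand setting in counting and the treatment of duplicates are not given in the sources used here. DOX columns of the CAL27 table carry numbers that are not those of the samples, so they were mapped to their group only. No other sample columns were left out (0).

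Each line was fitted alone in R 4.3.3 with edgeR 4.0.16 (TMM, filterByExpr at its minimum count of 10 and minimum total of 15, robust quasi-likelihood fit). Differences between lines came from 1 fit of all 12 libraries. A call is a Benjamini-Hochberg adjusted p under 0.05. Scripts were tested on simulated data. Alternatives were DESeq2 1.42.0, its size factors, library totals, no filter, 1 fit of all 12 libraries, a replicate block in HSC3 and each library left out. Lengths and coordinates came from GENCODE 44 on GRCh38, which matched 38934 symbols directly and 370 through RefSeq synonyms. This annotation may differ from the one counted.

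The members and lists were chosen with earlier results of these data known. Named genes were the 7 members, MUC1, every PARP family gene, up to 3 called genes per list and line with the largest change, the 3 genes of most similar pattern per interferon-linked member (mean log2 CPM in each line 3 or higher), and flanking genes. A gene of the interferon signalling list that this rule named is not reported here. IRF9 counts and the flanking genes named were picked after their values were seen. No replicate pair was a duplicate (equal counts on 0.441% to 1.37% of genes). HSC3 samples with the same number did not deviate together (r of -0.025, 0.046 and -0.006), so the numbers were not taken as pairs.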

Additional observations from a re-analysis of the deposited data

Results flagged for a closer look

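For 31 of the genes named above, squamous markers not counted, the DOX effect differed between HSC3 and CAL27 cells in the edgeR test of the interaction (adjusted p under 0.05). Over all 20694 genes in that test, 8.25% had a higher and 12.3% a lower value in HSC3 cells. The named genes were picked by rules that used these data, so their number is a description only. The difference, as the log2 effect in HSC3 cells minus that in CAL27 cells, was 0.784 for PARP9, 1.004 for PARP10, 0.774 for PARP12, 0.949 for PARP14, 0.551 for DTX3L, -0.341 for PARP1 and -0.363 for PARP2. In the rest of the PARP family it was 0.55 for PARP8, 0.201 for PARP4, 0.347 for TNKS and 0.279 for TNKS2. Among the other lists it was 0.449 for DTX4, 0.932 for MACROD1, 0.629 for NMNAT3, 0.857 for STAT2, -0.528 for JAK2, 0.961 for IRF1 and -0.843 for TIMELESS. For MUC1, the targeted gene, it was 1.36. Of the 7 squamous markers, 3 also passed this test, and for them it was 1.022 for KRT14, 0.477 for EPCAM and -0.201 for TP63. The other 4 markers did not pass. Among the other genes of most similar pattern it was 0.611 for PLSCR1, 0.785 for IFITM3, 0.936 for GBP1, 0.73 for SAMHD1, 1.088 for TRANK1, 0.532 for EIF2AK2, 0.473 for SOD2, 0.912 for TRIM21, 0.815 for KYNU, 0.755 for COL4A5, 0.852 for MVP and 1.009 for HDAC5, which were chosen for their likeness to a member over the same libraries and are given as a description. For MACROD1 and DTX4 the effect was below 0 in CAL27 cells and, without passing the test, above 0 in HSC3 cells. TIMELESS was called in opposite directions in the 2 lines, higher in CAL27 and lower in HSC3 cells. Line, medium and library set cannot be told apart in these differences.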

How the results depend on the processing

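Over all alternatives, the 7 genes gave 375 values with the same direction and call as reported, 7 that lost a call, 2 that gained one and 1 that changed sign. In CAL27 cells every call on the 7 genes held in each of the 11 alternatives, with log2 fold changes of -1.5 to -1.42 for PARP14 and -1.26 to -1.18 for PARP9. With 1 fit of all 12 libraries, 2337 genes were lower, 568 lower by over 2-fold and 2746 higher in CAL27 cells, and in HSC3 cells 1237 were lower and 545 higher by over 2-fold, while PARP2 passed the test there (0.133, adjusted p = 0.041 by edgeR). With DESeq2 size factors in edgeR, DTX3L in HSC3 cells did not pass (-0.19, adjusted p = 0.071), and COL4A5 was at 0.001 there and with DESeq2. TIPARP was at -0.021 with library totals in HSC3 cells.

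Leaving out 1 library at a time in HSC3 cells gave DTX3L at -0.246 to -0.166, PARP10 at 0.118 to 0.477, PARP12 at -0.012 to 0.08, TIPARP at -0.047 to 0.051, COL4A5 at -0.034 to 0.013, the PARP2 to PARP1 log2 ratio at -0.014 to 0.111, and 0 to 1 interferon-linked genes higher. PARP10 was called there (0.473) without DOX replicate 1 only. The count of genes higher in HSC3 cells was 1514 to 3268, lowest without vehicle replicate 2. For the difference between lines, 1336 to 2614 genes were higher, highest without HSC3 DOX replicate 1. PARP6 was at -0.015 to 0.054 in CAL27 cells, and the PARP10 difference between vehicle levels at -0.77 to -0.407. The causes were not tested. With the replicate block in HSC3 cells, 2523 genes were lower and 1955 higher, and DTX3L kept an adjusted p of 0.046 by edgeR, with no call on the 7 genes changed. The numbers in HSC3 are shared labels only, and the CAL27 DOX columns carried none. PARP15 had 0 to 22 counts in CAL27 cells, too few to be tested, and 175 to 240 counts in HSC3 vehicle libraries.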
